A study of Mus musculus with 11 samples.

Results

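Transcripts of 9 genes for enzymes of the citric acid cycle were followed in the left ventricle of mice, namely Cs, Idh3a, Idh3b, Idh3g, Ogdh, Suclg1, Sucla2, Fh1 and Mdh2. The genes were a fixed list matched by symbol to the 25006 gene identifiers of the count tables, and the rule itself used no measured value, although the list was drawn up with earlier results of these data known. All 9 were matched and all 9 passed the filter on low counts, which left 14779 genes for testing. The 11 libraries came from 4 groups, with 1 library for each mouse number in the labels. Naive control mice (n = 2) and MI control mice (n = 3) carried the floxed allele as Vegfc fl/fl, and naive (n = 3) and MI (n = 3) Vegfc-deficient mice were Vegfc fl/fl with LysMCre, so that every mouse carried the floxed allele according to the genotype field. The protocol text of the labels and the study's methods instead name LysMCre mice as the controls, and which description holds was not settled here. MI was a permanent ligation of the left anterior descending coronary artery, and infarcted ventricle was taken 9 days later. Naive mice gave a piece of ventricle of about the same mass and position. LysMCre acts in myeloid cells such as macrophages and neutrophils, so the deletion is not directed at the cardiomyocytes, and the ages of the mice are not given in the sources used here.

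The citric acid cycle oxidizes the acetyl group made from fatty acids, pyruvate and amino acids in the mitochondrial matrix and passes the electrons to the respiratory chain. Cardiomyocytes are packed with mitochondria and depend on this route for the ATP of contraction, whereas fibroblasts and leukocytes of a healing infarct hold far fewer mitochondria per cell. All of the enzymes followed here are encoded in the nucleus and imported.

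The genes lie on different chromosomes of GRCm38, and the letters before 3 of their starts are shown because these stretches hold no annotated exon and differ in the motifs they carry. RefSeq promoter entries (GRCm38.p6) were found for 8 of the 9 genes, the exception being Idh3a. The 250 bases before each start were searched on both strands for 5 short motifs known as sites of factors that act on nuclear genes for mitochondria. These were TNAAGGTCA for the estrogen-related receptors (ERR), GCGCNTGCG for NRF1, CCGGAAG for ETS factors such as GABP, AANATGGCG for YY1, and the E-box CACGTG. Capitals mark a match, and all 3 stretches end at the base before the start and are written 5′ to 3′ in the direction of transcription. Idh3g is on the minus strand at chrX:73786898-73787027, Cs on the plus strand at chr10:128337477-128337726 and Fh1 on the minus strand at chr1:175625636-175625885.
Idh3g: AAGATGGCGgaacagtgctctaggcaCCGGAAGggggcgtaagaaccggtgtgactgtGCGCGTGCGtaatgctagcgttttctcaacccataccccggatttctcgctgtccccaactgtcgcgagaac
Cs: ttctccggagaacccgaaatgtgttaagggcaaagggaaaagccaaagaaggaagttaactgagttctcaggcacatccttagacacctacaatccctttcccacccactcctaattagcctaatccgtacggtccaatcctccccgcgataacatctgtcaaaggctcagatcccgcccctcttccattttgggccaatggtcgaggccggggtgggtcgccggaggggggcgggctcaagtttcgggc
Fh1: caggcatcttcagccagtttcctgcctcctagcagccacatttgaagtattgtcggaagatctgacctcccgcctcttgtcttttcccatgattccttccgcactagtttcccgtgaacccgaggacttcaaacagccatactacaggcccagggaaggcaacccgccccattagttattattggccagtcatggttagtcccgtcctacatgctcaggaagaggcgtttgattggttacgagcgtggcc
In Idh3g the YY1, ETS and NRF1 letters began 130, 104 and 72 bases before the start, and no 2 of these matches overlapped. The window of Sucla2, whose entry is for a start inside the annotated gene, held the NRF1 letters 17 bases before that start, and among the 6 alternative starts of Ogdh some windows held the NRF1 letters or the E-box. The remaining 5 genes with an entry, Cs, Idh3b, Suclg1, Fh1 and Mdh2, held none of the 5 motifs, and the ERR letters were in none of the 8. Over all 32851 promoter entries the share with a match was 1.138% for ERR, 5.19% for NRF1, 6.91% for ETS, 1.12% for YY1 and 6.02% for the E-box. Counted by gene, with a match in any entry, the shares of 27025 genes were 1.30%, 5.88%, 7.83%, 1.29% and 6.86% in the same order. These matches describe letters in the reference and were not tested for binding.

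Total counts ran from 10824989 to 26782728 per library, and 3 counts corresponded to 0.101 to 0.363 CPM (counts-per-million values after TMM scaling of library sizes, counting error only), far below every value of the 9 genes. Vegfc did not separate the genotypes in whole tissue (22.4 to 34.5 CPM in Vegfc-deficient and 21.9 to 45.5 CPM in control libraries). Lyz2, the gene in which LysMCre is inserted, was at 2121 to 5380 CPM in control libraries and at 12.4 to 1392 CPM in 5 of the 6 Vegfc-deficient ones, whereas M149, a library whose label reads naive and Vegfc-deficient, had 4565 CPM. The main results on the 9 genes that use M149 are therefore also given without it. Xist was at 0.624 to 11.8 CPM in naive and 187.7 to 403.4 CPM in MI libraries, and 4 Y-linked genes summed to 152.2 to 195.2 CPM in naive and at most 1.84 CPM in MI libraries, so the sex that these genes report and MI cannot be told apart. The 13 protein genes of the mitochondrial genome were at 0 counts throughout. The test was edgeR's quasi-likelihood test with all 4 groups fitted together, and adjusted p-values are by Benjamini-Hochberg over all 14779 genes. They weigh each difference against the spread between the mice sampled, as estimated in the joint fit of the 4 groups.

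After MI all 9 transcripts were lower, in control and in Vegfc-deficient mice. In control mice the log2 fold changes lay within a narrow range, from -2.34 for Cs to -2.65 for Ogdh, and the median of -2.53 is a 5.79-fold drop. In Vegfc-deficient mice they ran from -1.66 for Cs to -2.72 for Idh3b with a median of -2.29, a 4.88-fold drop. Of all genes tested, 24.1% were called lower after MI in control mice and 27.7% in Vegfc-deficient mice, and the median log2 fold change over all genes was 0.13 and 0.097. In each of the 9 genes every MI library lay below every naive library of its own genotype, which 33% of all genes did in control mice and 30.7% in Vegfc-deficient mice. The adjusted p-values (edgeR) were 0.000251 to 0.00149 in control mice and 0.000258 to 0.00261 in Vegfc-deficient mice. Without M149 the median in Vegfc-deficient mice was -2.40, again with 9 of 9 called lower, from -1.72 for Cs to -2.87 for Sucla2. The 2 comparisons share no library but rest on the same estimate of the spread.

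**Figure D1:**
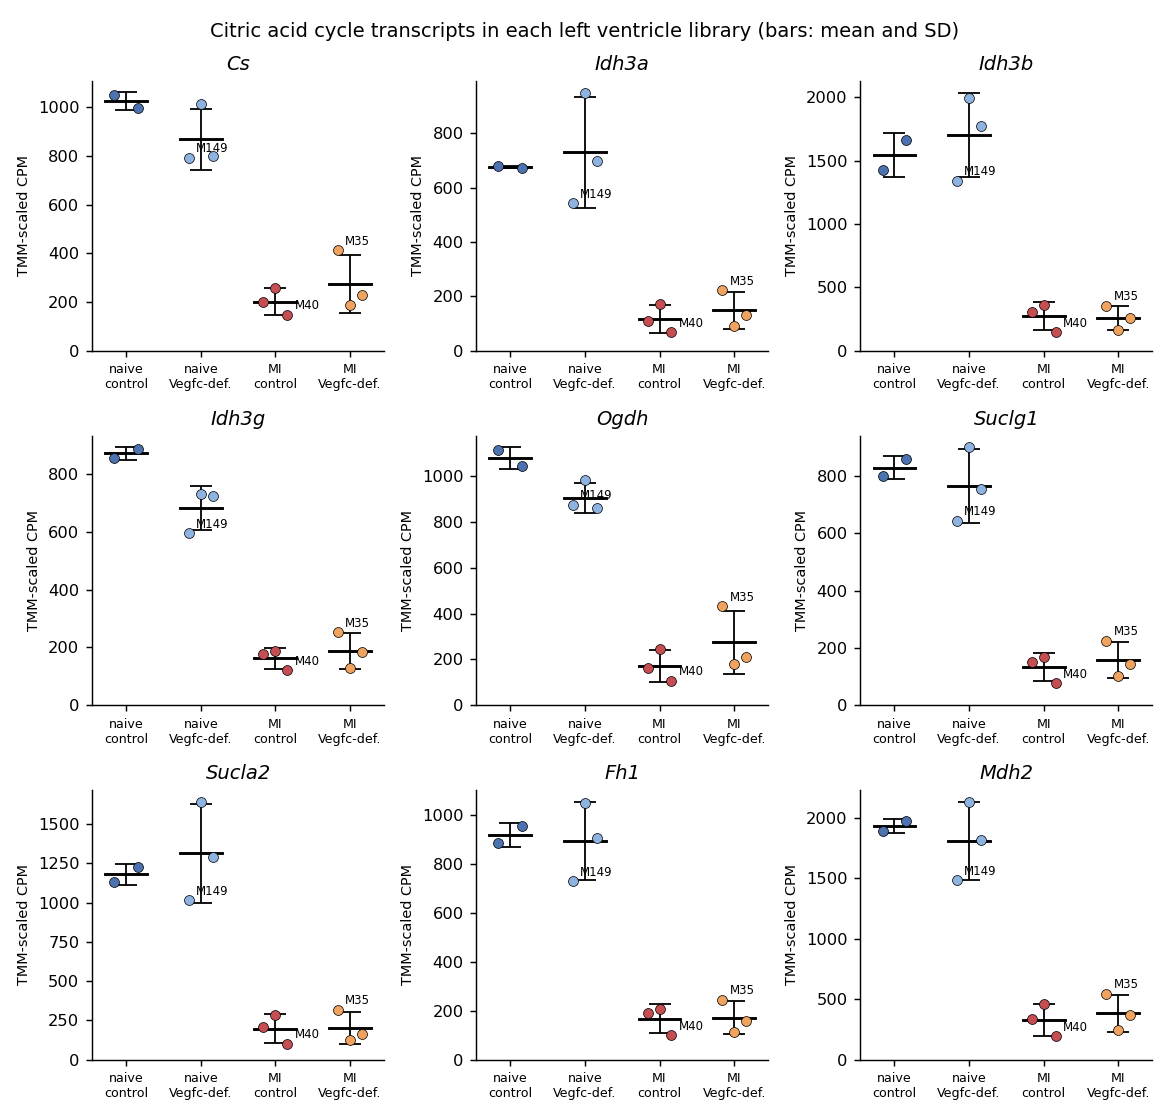
TMM-scaled CPM (vertical axes, from 0) of each of the 9 genes in the 11 libraries, by group (Vegfc-def. stands for Vegfc-deficient); points are libraries, horizontal bars the mean and whiskers the SD. In every panel the 6 MI libraries lie below the 5 naive libraries, with M40 the lowest of the MI libraries and M35 the highest in all but Idh3b.

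The drop in cycle transcripts went with changes in the markers of several cell types. The summed CPM of 10 cardiomyocyte markers, none of them at 0 in any library, was 67758 to 91529 in naive and 2350 to 22195 in MI libraries. Of these 10 markers 10 were called lower after MI in control mice and 9 in Vegfc-deficient mice, the exception being Ttn. The latter number was 5 without M913 and 6 without M150 or M900. The sum of 8 fibroblast markers was 5370 to 6887 CPM in naive and 32724 to 52762 CPM in MI libraries. Of these markers 6 of 8 were called higher in control and 7 of 8 in Vegfc-deficient mice. Among all genes tested 26.3% were called higher in control and 30% in Vegfc-deficient mice. Macrophage markers summed to 1794 to 2545 CPM in naive and 2395 to 5883 CPM in MI libraries, and 4 of 8 were called higher in control and 5 of 8 in Vegfc-deficient mice. Only 1 macrophage marker was called in control mice without M44 or M45, and in Vegfc-deficient mice 1 was called without M913, 2 without M34 or M900 and 3 without M150. T cell markers summed to 4.01 to 11.4 CPM in naive and 11.4 to 126 CPM in MI libraries. Only M38 reached 126 CPM, the next highest being M006 at 23.6 CPM, and M40 lay within the naive range. Red cell markers summed to 1092 to 4383 CPM in naive and 309 to 1375 CPM in MI libraries. Endothelial markers summed to 976 to 1321 CPM in naive and 475 to 1013 CPM in MI libraries. The part of these changes in the drop was not tested, and in bulk tissue fewer cardiomyocytes and less of these RNAs per cardiomyocyte cannot be told apart.

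Cs (ENSMUSG00000005683, chromosome 10 from 128337734 to 128362479) encodes citrate synthase, which joins acetyl-CoA and oxaloacetate at the entry of the cycle and serves in many laboratories as a measure of mitochondrial content. Naive hearts had 1051 (M44) and 998 (M45) CPM of it in controls and 792 (M149), 1014 (M150) and 801 (M34) CPM in Vegfc-deficient mice. Infarcted hearts had 202 (M006), 256 (M38) and 148.7 (M40) CPM in controls and 412 (M35), 188 (M900) and 227 (M913) CPM in Vegfc-deficient mice. The MI library M35 was the highest of the 6 and still lay 1.92-fold below M149, the lowest naive library. The log2 fold change with MI was -2.34 (standard error 0.33) in control mice and -1.66 (standard error 0.31) in Vegfc-deficient mice, with adjusted p-values of 0.000524 and 0.00123 by edgeR's quasi-likelihood test. Library values below keep this order within each group.

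Idh3a, Idh3b and Idh3g encode the alpha, beta and gamma subunits of the NAD-dependent isocitrate dehydrogenase, the regulated step that releases the CO2 on the way to 2-oxoglutarate. The alpha subunit is needed for catalysis, and the beta and gamma subunits carry structural and allosteric roles. Idh3a (ENSMUSG00000032279, chromosome 9 from 54586334 to 54604661) was at 679 and 672 CPM in naive control and at 542, 948 and 699.8 CPM in naive Vegfc-deficient libraries. After MI it was at 109.9, 172 and 68.1 CPM in control and at 223, 91.1 and 131 CPM in Vegfc-deficient libraries. The naive control pair was close together, and of the naive Vegfc-deficient libraries M149 lay below it and the other 2 above. The log2 fold change was -2.53 (standard error 0.43) in control and -2.30 (standard error 0.40) in Vegfc-deficient mice, with adjusted p-values of 0.00117 and 0.00087 (edgeR).

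Idh3b (ENSMUSG00000027406, chromosome 2 from 130279309 to 130284547) had the widest gap between naive and MI libraries, the lowest naive value being 3.69-fold the highest MI value. It was at 1423 and 1665 CPM in naive control and at 1339.9, 1993 and 1769.7 CPM in naive Vegfc-deficient libraries. It was at 304, 363 and 148 CPM in MI control and at 355, 162 and 259 CPM in MI Vegfc-deficient libraries, and here M38 rather than M35 was the highest MI library. The log2 fold change was -2.51 (standard error 0.40) in control and -2.72 (standard error 0.38) in Vegfc-deficient mice, with adjusted p-values of 0.000928 and 0.000262 (edgeR). Idh3b shares 5 exon bases with Nop56 on the opposite strand. None of the other 8 genes shared an exon base with another gene counted here.

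Idh3g (ENSMUSG00000002010, chromosome X from 73778963 to 73786897), the gene whose upstream letters held 3 motifs, is the X-linked gene of the set. It was at 856 and 888 CPM in naive control and at 594, 730.3 and 722 CPM in naive Vegfc-deficient libraries, so that the naive groups did not overlap, with Vegfc-deficient the lower, as in 10.1% of all genes. It was at 178, 187 and 121 CPM in MI control and at 253, 128 and 183 CPM in MI Vegfc-deficient libraries, which overlapped. The log2 fold change was -2.43 (standard error 0.28) in control and -1.86 (standard error 0.26) in Vegfc-deficient mice, with adjusted p-values of 0.000251 and 0.000258 (edgeR). The part of the Xist and Y-linked difference in this X-linked gene was not tested.

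Ogdh (ENSMUSG00000020456, chromosome 11 from 6291633 to 6356642) encodes the E1 subunit of the 2-oxoglutarate dehydrogenase complex, which makes succinyl-CoA and is activated by calcium. It was at 1112 and 1046 CPM in naive control and at 875, 982 and 862 CPM in naive Vegfc-deficient libraries, which again lay below the control pair without overlap. It was at 164, 245 and 107 CPM in MI control and at 432, 179.7 and 211 CPM in MI Vegfc-deficient libraries, where M35 stood above the other 5 MI libraries. The log2 fold change was -2.65 (standard error 0.40) in control and -1.73 (standard error 0.37) in Vegfc-deficient mice, with adjusted p-values of 0.00067 and 0.00261 (edgeR). With Suclg1, Ogdh had the largest drop of the 9 in control mice, and after Cs it had the smallest in Vegfc-deficient mice, where Idh3g followed at -1.86.

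Suclg1 and Sucla2 encode subunits of succinyl-CoA synthetase, which forms a nucleoside triphosphate directly. Suclg1 is the alpha subunit common to both forms of the enzyme, and Sucla2 is the beta subunit of the ADP-dependent form. Suclg1 (ENSMUSG00000052738, chromosome 6 from 73248382 to 73276911) was at 801 and 858 CPM in naive control, 644, 900.3 and 754 CPM in naive Vegfc-deficient, 152, 168 and 77.7 CPM in MI control and 225, 101 and 145 CPM in MI Vegfc-deficient libraries. Sucla2 (ENSMUSG00000022110, chromosome 14 from 73525319 to 73596142) was at 1132 and 1228 CPM, 1015, 1639.7 and 1287 CPM, 207, 283 and 101 CPM, and 317, 123 and 162 CPM in the same groups. The MI groups overlapped in both genes and neither overlapped with a naive group. The log2 fold changes of Suclg1 were -2.65 (standard error 0.37) in control and -2.29 (standard error 0.35) in Vegfc-deficient mice, with adjusted p-values of 0.000497 and 0.000393 (edgeR). Those of Sucla2 were -2.58 (standard error 0.46) and -2.71 (standard error 0.44), with adjusted p-values of 0.00149 and 0.00056 (edgeR).

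Fh1 encodes fumarate hydratase, which turns fumarate into malate, and Mdh2 encodes the mitochondrial malate dehydrogenase, which regenerates oxaloacetate and also serves the malate-aspartate shuttle. Fh1 (ENSMUSG00000026526, chromosome 1 from 175600374 to 175625635) was at 884 and 953 CPM in naive control, 729 to 1048 CPM in naive Vegfc-deficient, 192, 209 and 100.5 CPM in MI control and 244, 113 and 157 CPM in MI Vegfc-deficient libraries. Mdh2 (ENSMUSG00000019179, chromosome 5 from 135778480 to 135790398) was at 1891 and 1968 CPM, 1483 to 2128 CPM, 338, 459.8 and 195 CPM, and 544, 242 and 368 CPM in the same groups. Again no MI library reached a naive value. The log2 fold changes of Fh1 were -2.46 (standard error 0.36) in control and -2.38 (standard error 0.34) in Vegfc-deficient mice, with adjusted p-values of 0.000608 and 0.000282 (edgeR). Those of Mdh2 were -2.54 (standard error 0.39) and -2.23 (standard error 0.37), with adjusted p-values of 0.000764 and 0.000621 (edgeR).

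Between the genotypes no difference passed the test in any of the 9 genes. After MI the log2 fold change of Vegfc-deficient against control mice was 0.45 for Cs, 0.34 for Idh3a, -0.072 for Idh3b, 0.21 for Idh3g, 0.67 for Ogdh, 0.24 for Suclg1, 0.027 for Sucla2, 0.037 for Fh1 and 0.22 for Mdh2. The 95% confidence interval ran from -0.12 to 1.47 for Ogdh and from -0.22 to 1.11 for Cs. For Fh1 the interval ran from -0.69 to 0.76 and for Idh3b from -0.87 to 0.73. Differences within these bounds, in either direction, were therefore not excluded with 3 MI mice a group in the joint fit. Adjusted p-values were 0.657 (Ogdh) to 0.992 (Sucla2) by edgeR's quasi-likelihood test, and the share of all genes called was 0%, with 1173 genes at an unadjusted p under 0.05 and 51 called by DESeq2, none of the 9 among them. In 8 of the 9 genes only the library M35 of the Vegfc-deficient group lay above every MI control library, and in Idh3b none did. The median over the 9 genes was 0.22, but -0.11 without M35 and -0.027 without the MI control library M40, and it was 0.49 without M38 and 0.48 without M900. M35 also had the highest cardiomyocyte marker sum of the MI libraries and M40 the lowest, and the part of this in the difference was not tested.

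In naive mice the log2 fold changes of Vegfc-deficient against control mice ran from -0.35 for Idh3g to 0.16 for Sucla2 with a median of -0.094, which was 0.031 without M149 and -0.23 without M150. All adjusted p-values of the 9 genes were 1 by edgeR's quasi-likelihood test, and 0% of all genes were called, with 499 at an unadjusted p under 0.05 and 14 called by DESeq2. The 95% confidence interval for Idh3g ran from -0.98 to 0.27. The difference between the MI responses of the genotypes (Vegfc-deficient minus control) had a median of 0.31 over the 9 genes and was largest for Ogdh at 0.92, with a 95% confidence interval from -0.25 to 2.10. Its adjusted p-values were 0.644 to 0.975 in edgeR's interaction test, which called 0% of all genes, with 1226 at an unadjusted p under 0.05 and 55 called by DESeq2. With a library left out the median was lower without M149 (0.18), M40 (0.039) and M35 (-0.025) and higher without M38 (0.67), M900 (0.58) and M150 (0.47).

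**Figure D2:**
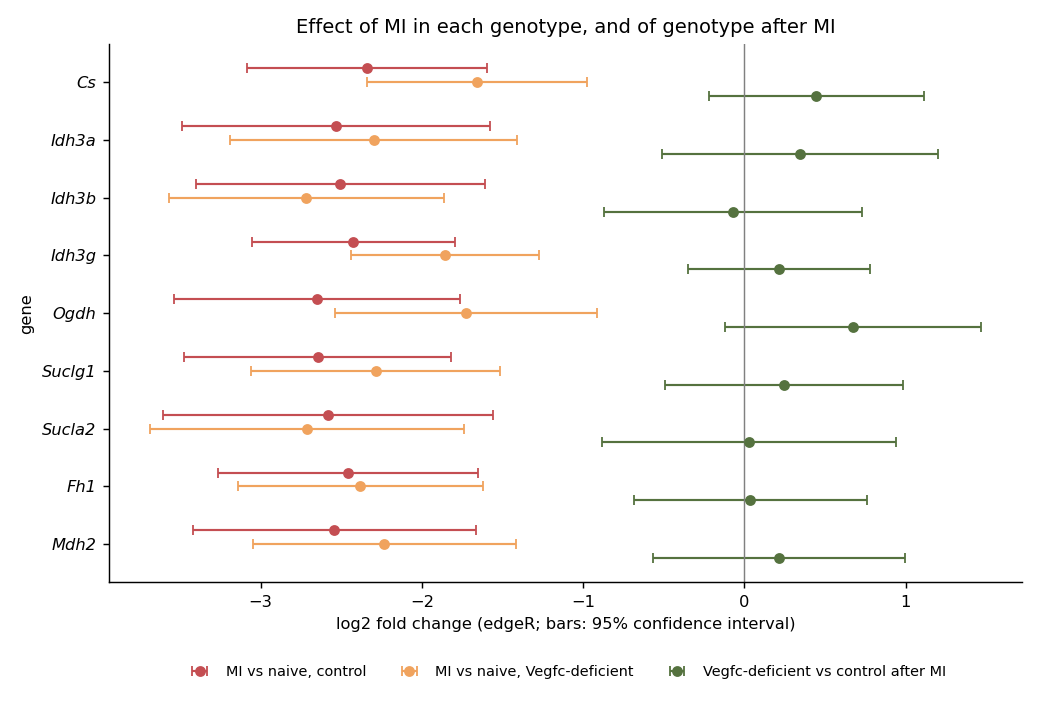
log2 fold changes (horizontal axis) of the 9 genes in the order of the cycle, with 95% confidence intervals, for MI against naive in control mice, for MI against naive in Vegfc-deficient mice, and for Vegfc-deficient against control mice after MI. All intervals of the MI effects lie below 0, and all 9 intervals of the genotype effect after MI include 0.

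Relative to the summed CPM of the cardiomyocyte markers, the summed cycle transcripts stood higher in MI than in naive libraries. The summed CPM of the 9 genes was 11.8% to 13.2% of the summed CPM of the 10 markers in the 5 naive libraries. It was 17.99%, 18.4% and 45.4% in the MI control libraries M38, M006 and M40 and 13.5%, 17.99% and 26.9% in the MI Vegfc-deficient libraries M35, M913 and M900, so that every MI library lay above every naive library. The percentage was highest in M40 and M900, the libraries with the lowest marker sums (2350 and 4931 CPM). By gene, Cs and Ogdh exceeded their naive range in 6 of 6 MI libraries, Sucla2 in 4 and each of the other 6 genes in 5. In M35 the ratios of Idh3b and Sucla2 lay below every naive library. In Vegfc-deficient mice the mean log2 ratio rose by only 0.15 for Idh3b and 0.12 for Sucla2, against 1.19 for Cs. On the log2 scale the median ratio was 0.98 higher after MI in control mice and 0.74 higher in Vegfc-deficient mice (0.77 without M149). Without M40 the value in control mice was 0.57. M900 likewise raised the value in Vegfc-deficient mice, with a median log2 ratio of -5.27 against -5.81 (M913) and -6.13 (M35). The markers themselves had a median log2 fold change of -3.10 in control mice (-2.58 to -3.54), against -2.53 (-2.34 to -2.65) for the 9 genes. In Vegfc-deficient mice it was -2.40 (-0.98 to -3.24), against -2.29 (-1.66 to -2.72). Every marker fell more than the median of the 9 genes in control mice. In Vegfc-deficient mice Ttn (-0.98), Mybpc3 (-1.63), Actn2 (-1.91), Myh6 (-2.13) and Ryr2 (-2.24) fell less than that median. The other listed markers fell more, so the direction there depends on the marker. The ranges of markers and cycle genes overlapped in both genotypes, and other cell types of the infarct also contain the cycle enzymes. Any gene that fell less than the marker sum also rises relative to it. The median log2 fold change over all genes was 0.13 in control and 0.097 in Vegfc-deficient mice. The share of all genes that exceeded their naive range in this ratio was not computed, so the rise is not shown to be particular to the 9 genes. These ratios are a description and were not tested.

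**Figure D3:**
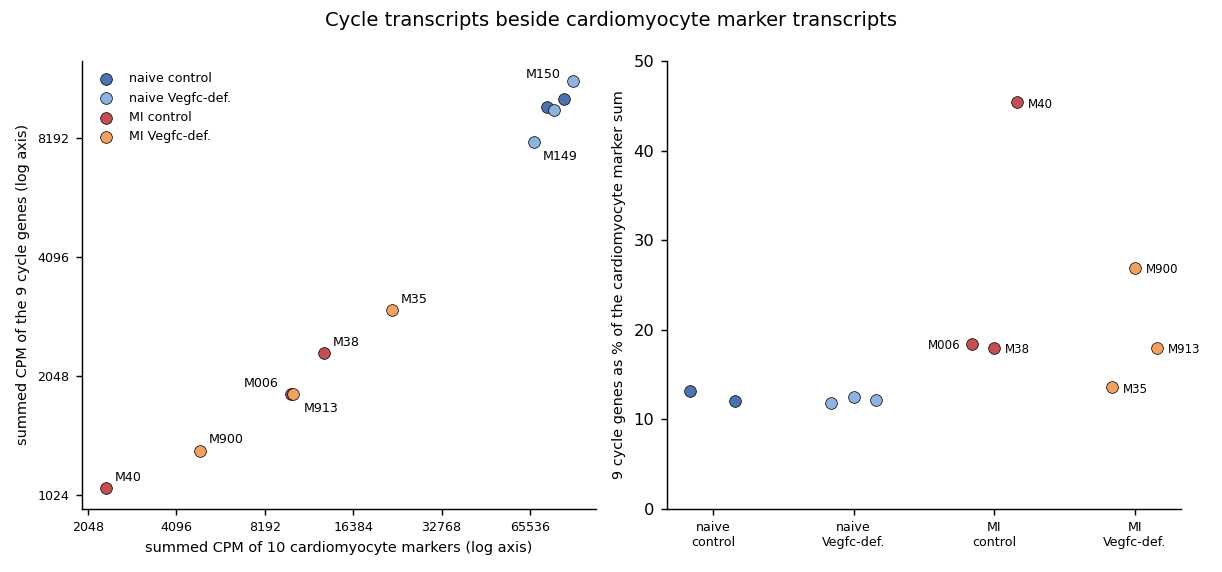
Left, summed CPM of the 9 cycle genes (vertical log axis) against summed CPM of 10 cardiomyocyte markers (horizontal log axis) in each library; right, the former as a percentage of the latter, by group. The naive libraries take 11.8% to 13.2% and those of MI mice 13.5% to 45.4%, with M40 and M900 the highest.

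The other enzymes of the cycle moved the same way. All 9 of a second list were called lower in both genotypes. They include the NADP-dependent Idh2, the E2 and E3 subunits of the 2-oxoglutarate complex (Dlst and Dld, the latter also part of the pyruvate complex), the GTP-dependent beta subunit Suclg2 and the subunits of succinate dehydrogenase (Sdha to Sdhd). In control mice the log2 fold changes were -3.14 for Idh2, -1.91 for Dlst, -2.02 for Dld, -1.93 for Suclg2, -2.42 for Sdha, -2.63 for Sdhb, -2.27 for Sdhc and -2.10 for Sdhd. The median over the 9 genes of the list was -2.27 in control and -2.20 in Vegfc-deficient mice. After MI none of them was called between the genotypes.

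Genes that feed or drain the cycle were more mixed. Of 11 genes of the pyruvate dehydrogenase complex and its kinases and phosphatases, 9 were called lower in both genotypes. Pdhx fell by 2.46 and Pdha1 by 2.22 on the log2 scale in control mice, while the kinase Pdk3 rose, with 7.89 to 10.6 CPM in naive and 18.8 to 27.6 CPM in MI libraries (log2 fold change 1.25 and 1.26 in control and Vegfc-deficient mice). Of 14 genes of anaplerosis and mitochondrial transport 9 were called lower in each genotype, and the smallest p-values in control mice were those of the propionyl-CoA carboxylase subunits Pcca (-2.11 in control mice) and Pccb (-1.34) and of methylmalonyl-CoA mutase Mmut (-1.68). Among the genes of this list called higher were the citrate carrier Slc25a1 (1.04 and 0.79) in both genotypes and the malic enzyme Me2 (0.46) in Vegfc-deficient mice. They were chosen for mention after their values were seen. Slc25a1 was not called in control mice without M44 (adjusted p = 0.0623, edgeR) or in Vegfc-deficient mice without M150 or M913 (adjusted p = 0.0523 and 0.0693, edgeR).

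Cytosolic counterparts split. Mdh1 (-2.81 and -2.34 in control and Vegfc-deficient mice), Got1 (-3.06 and -1.98) and Me1 (-1.55 and -1.71) were called lower in both genotypes. Aco1, Idh1 and the ATP-citrate lyase Acly were called in neither, with log2 fold changes between -0.28 and 0.29. Of 8 tested side-reaction and paralog genes 6 were called lower in both genotypes, among them Clybl (-2.65 in control mice) and Mrps36, a small subunit of the 2-oxoglutarate complex (-2.76). Acod1, which diverts cis-aconitate to itaconate in activated macrophages and was named after its values were seen, was at 0.41 to 0.69 CPM in naive and at 0.70 to 29.1 CPM in MI libraries. Its log2 fold change was 4.32 in Vegfc-deficient mice (adjusted p = 0.0269, edgeR) and 3.51 in control mice (adjusted p = 0.108, edgeR), but M900 carried the former, with 29.1 CPM against 1.65 (M35) and 0.79 (M913) CPM in the other MI Vegfc-deficient libraries. Without M900 the log2 fold change of Acod1 in Vegfc-deficient mice was 1.18 (adjusted p = 0.334, edgeR), and it was also no longer called without M149, M150 or M34 (adjusted p = 0.0600, 0.0778 and 0.0822, edgeR). In control mice it was 3.49 and called without M900 (adjusted p = 0.0196, edgeR). A list of 15 mitochondrial genes outside these pathways, covering import, chaperones and membrane structure, had medians of -1.51 and -1.48, with 14 of 15 called lower in control mice and 15 of 15 in Vegfc-deficient mice. The smallest p-values in it were those of Immt (-2.20 in control mice), Clpp (-1.51) and Opa1 (-1.53). None of the genes of these lists was called between the genotypes after MI.

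**Figure D4:**
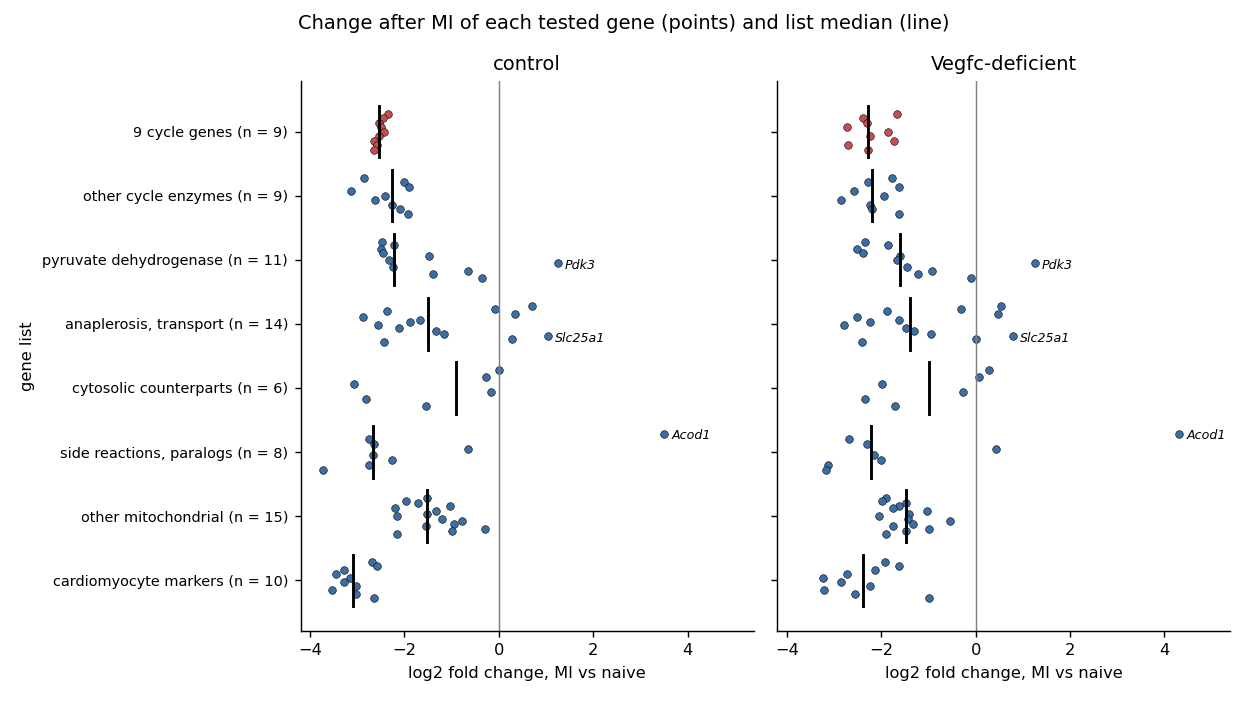
log2 fold change of MI against naive (horizontal axes) in control (left) and Vegfc-deficient mice (right) for each tested gene of 8 lists; points are genes and black lines list medians. The 9 cycle genes (red) have medians of -2.53 and -2.29, and the labelled genes lie to the right of 0 in both panels.

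Levels were compared between genes only per length, as CPM per kilobase of the principal transcript (RPKM), a scale that assumes this transcript is the one present. Mdh2 had the highest level in 11 of 11 libraries and Idh3b the next in 11 of 11, at 1325 ± 37.4 and 955 ± 105.5 RPKM (SD, n = 2) in naive control mice. Idh3g followed at 655 ± 16.7 RPKM. Suclg1 and Sucla2 (546 and 529 RPKM) overlapped between libraries, as did Cs and Fh1 (350.2 and 348 RPKM). In naive control mice Idh3a at 281 RPKM and Ogdh at 261 RPKM were the lowest, and Ogdh was the lowest in 9 of 11 libraries. With the length of all exons in place of the principal transcript, Mdh2 remained highest in 10 of 11 libraries and Idh3a rather than Ogdh was lowest in 10 of 11.

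**Figure D5:**
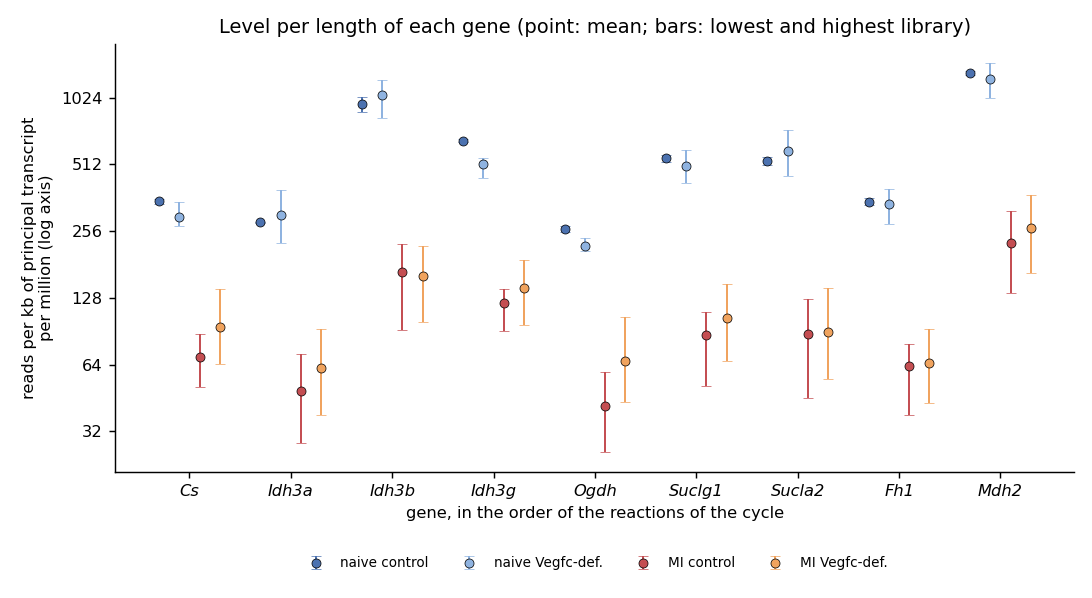
CPM per kilobase of the principal transcript (RPKM, vertical log axis) of each gene in the order of the reactions; points are group means and bars run from the lowest to the highest library. Mdh2 and Idh3b have the highest mean levels and Ogdh the lowest in the naive groups, and the MI groups lie below them in every gene.

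Ratios between transcripts of subunits, paralogs and related enzymes shifted in places. Per length, Sucla2 was 16.0 to 23.1 times Suclg2, the beta subunit of the GTP-dependent form, in the 5 naive libraries and 6.79 to 12.9 times in the 6 MI libraries, with no overlap. Ogdh was 7.11 to 11.3 times its paralog Ogdhl in naive and 16.3 to 37.3 times in MI libraries, again without overlap. In contrast Mdh2 over Mdh1 was 0.51 to 0.574 in naive and 0.499 to 0.73 in MI libraries, and Suclg1 over Sucla2 was 0.806 to 1.04 and 0.87 to 1.32. Among the isocitrate dehydrogenase subunits, Idh3b over Idh3g was 1.37 to 2.25 in naive and 1.003 to 1.598 in MI libraries, which overlapped. Idh3b over Idh3a was 3.11 to 3.76 in naive and 2.37 to 4.12 in MI libraries. Idh3g over Idh3a was 1.39 to 2.38 and 1.96 to 3.21, and Idh2 over Idh3a 3.01 to 4.71 and 2.45 to 3.39. Ogdh over Dlst was 0.979 to 1.25 and 0.568 to 1.15, and Ogdh over Cs 0.686 to 0.783 and 0.508 to 0.743. Each of these overlapped as well, with the genotypes pooled. Within Vegfc-deficient mice alone, naive and MI libraries did not overlap in Idh3b over Idh3g, Idh3b over Idh3a, Idh3g over Idh3a and Suclg1 over Sucla2. Within control mice alone (n = 2 naive), they did not overlap in Ogdh over Dlst, Ogdh over Cs and Idh2 over Idh3a. Each of these ratios overlapped in the other genotype, and Mdh2 over Mdh1 overlapped in both. The share of all gene pairs without overlap was not computed. These ratios were described and not tested. They are from bulk tissue, and the part of the changed cell type markers in them was not tested.

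The 9 transcripts followed each other closely from library to library. Pearson's r of log2 CPM between pairs of them over the 11 libraries was 0.961 (Idh3b and Ogdh) to 0.998 (Suclg1 and Mdh2), and after the group means were removed it was 0.871 (Idh3b and Ogdh) to 0.998 (Suclg1 and Fh1). The points share library, scaling and the proportion of cardiomyocytes, and no p-value is given. The 5 tested genes outside the lists with the highest r to the mean of the 9 were Ndufs1 (0.9997), Etfdh (0.9995), Acadm, Atp5b and Atp5a1, which encode subunits of complex I and ATP synthase and enzymes of fatty acid oxidation. Their log2 fold changes with MI in control mice were -2.55, -2.94, -3.36, -2.64 and -2.62. Such likeness was common, since 1570 of 14707 genes compared (10.7%) had an r above 0.95.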

How the data were processed

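Left ventricular mRNA of 11 mice was sequenced from libraries made with a stranded kit. The deposited values are whole-number counts over 25006 Ensembl genes, which the authors had not normalized. The submitters' processing notes name cutadapt 1.13, STAR, HTSeq 0.6.1p1, DESeq2 1.14.1 and the build mm10, and HTSeq's strand setting is not given in the sources used here. Of the identifiers, 24942 were found in GENCODE M21 (GRCm38), the source of symbols, coordinates and lengths.

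Groups were taken from the sample labels. Counts were filtered with filterByExpr, scaled by TMM and tested with edgeR 4.0.16 (quasi-likelihood, 1 fit of 4 groups, Benjamini-Hochberg over all genes, threshold 0.05) in R 4.3.3, after the scripts had been tested on simulated counts. Alternatives used DESeq2 1.42.0, limma 3.58.1 (voom with quality weights), other scaling factors, filters and thresholds, an exon-length correction, the compared groups alone and the omission of each library. Total counts of 10824989 to 26782728 make counting error small beside the spread between mice. The 9 genes and the other lists were chosen with earlier results of these data known. In each other list the genes named are the 3 with the smallest p-value for MI in control mice, or all of them for the cycle enzymes, and further genes are marked as chosen after their values were seen. Some genes of these lists are not reported here. No transcript of another gene matched a transcript of the 9 at 95% identity or more over at least 200 bases.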

Additional observations from a re-analysis of the deposited data

How the results depend on the processing

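The effects of MI on the 9 genes kept direction and call in both genotypes under all 21 alternatives, which comprised other scalings, tests, filters and thresholds and the omission of each library. With a library left out, the largest adjusted p of the 9 was 0.012 in control mice (without M45) and 0.017 in Vegfc-deficient mice (without M913). The genotype effect after MI passed the test in none of the 9 under any alternative, but its direction was unstable. It turned to -0.13 for Sucla2 and -0.087 for Fh1 in limma-voom with quality weights. With each library left out in turn it ran from -0.074 to 0.78 for Idh3a, -0.37 to 0.24 for Idh3b, -0.063 to 0.45 for Idh3g, -0.11 to 0.51 for Suclg1, -0.47 to 0.43 for Sucla2, -0.31 to 0.29 for Fh1 and -0.12 to 0.57 for Mdh2, whereas Cs (0.037 to 0.69) and Ogdh (0.18 to 1.06) stayed positive. The turns came from leaving out M35, M40, M38, M006 or M900. The cause was not tested.

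The number of genes called over all tested for MI in control mice was 7450, and it was 4798 at an adjusted p under 0.01, 4550 when at least 1 log2 unit of change in either direction was also required, 4574 without M45 and 4880 without M44. In Vegfc-deficient mice 8520 were called, and 4965 with that requirement. Between naive genotypes 17 genes were called without M149, 6 by limma-voom and 2 with only the compared groups in the fit, against 0. The naive control group of 2 mice limits the precision of the interaction.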
